A study of Homo sapiens with 2 samples.

Results

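The AP-1 and immediate early transcription factors were followed in A673 cells, an established human Ewing sarcoma line, by comparing a library made from cells carrying a hairpin against RUNX3 with a library made from cells carrying a non-target hairpin. The set holds 10 genes, taken by name wherever the symbol appeared in both gene tables: FOS, FOSB, FOSL1, FOSL2, JUN, JUNB, JUND, ATF3, EGR1 and MYC. All 10 were found among 23365 gene rows. All 10 also reached 1 CPM (read pairs per 1000000 scaled pairs) in at least 1 library, as did 12254 genes in all. Library 813 is titled after the RUNX3 hairpin and library NT after the non-target hairpin. The shRNA characteristic of each contradicts its title, and grouping by it instead would turn every direction given here round. Each group is 1 library, titled a pool, of cells infected with lentivirus in 6 µg/mL polybrene and kept in 0.4 µg/mL puromycin for 6 days. No difference here therefore has a replicate check, none was tested, and the intervals given are 95% intervals that cover counting error only.

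AP-1 is a dimer of basic leucine zipper (bZIP) proteins. JUN proteins pair with each other or with FOS proteins, whereas FOS proteins need a JUN-type partner to bind DNA, and the dimer reads the motif TGACTCA or its longer relative TGACGTCA, the cAMP response element (CRE). Many of these genes are immediate early genes: growth factor signals through the ERK kinases switch on their transcription within minutes, without new protein synthesis, and their mRNAs and proteins are short-lived. In Ewing sarcoma the driving fusion protein EWS/FLI1 binds DNA through an ETS domain, and ETS and AP-1 motifs often lie side by side in regulatory DNA.

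RUNX3 itself, at 387 pairs in library 813 and 1391 pairs in library NT, was lower in library 813 (log2 fold -1.92, -2.09 to -1.76), the direction the titles give and the opposite of what the shRNA characteristics give. The gene counts kept summed to 23342660 pairs in library 813 and 24326135 pairs in library NT. Of 9 Ewing sarcoma markers, 9 were measured, summing to 4632 CPM in library 813 and 4704 CPM in library NT, most of it CD99 (4026 CPM in library 813 and 3808 CPM in library NT). Of the 9, 2 were called lower by the rule given in the next paragraph, NKX2-2 (log2 fold -1.43) and NR0B1 (-1.11), beside 3.48% of all measured genes. Markers of HEK 293T cells, the virus producers, summed to 339 CPM in library 813 and 491 CPM in library NT. Of these 6 markers 4 were measured, and CDKN2A was at 0 in both. Most of the HEK 293T sum was 1 gene, ENO2 (334 CPM in library 813 and 481 CPM in library NT). Fibroblast markers (6 of 7 measured) summed to 3526 and 2875 CPM in libraries 813 and NT, most of it COL1A2 (2628 and 2180 CPM). Endothelial markers (2 of 5 measured, TEK at 0 in both) summed to 3.56 and 1.68 CPM in the same libraries. Leukocyte markers (3 of 6 measured, CD3E at 0 in both) summed to 13.9 CPM in each. Called among these other markers were GATA3, of the HEK 293T list (lower), and KDR, of the endothelial list (higher). GATA3 had 33 pairs in library 813 and 93 pairs in library NT (log2 fold -1.56). KDR had 52 pairs in library 813 and 5 pairs in library NT (log2 fold 3.18). Of all measured genes 3.48% were called lower and 8.13% higher. The part of these marker levels in the results was not tested, and in bulk RNA fewer cells of a type and less RNA per cell cannot be told apart.

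Of the 10 factors, 7 were at a higher level in library 813 and 3 (FOS, JUND and MYC) at a lower level. For each of the 10 the counting interval lay wholly on its side of 0. That count was not made over all measured genes, so it does not set the 10 factors apart. These intervals also leave out the spread between cultures. None of the higher factors exceeded 2.14-fold and none of the lower ones reached 2-fold. A gene was called higher or lower where it differed at least 2-fold and its whole interval lay past 1.5-fold. By that rule 1 factor, FOSL2, was called higher, beside 8.13% of all measured genes (996 of 12254). No factor (0 of 10) was called lower, beside 3.48% of all measured genes (427 of 12254). FOSB and ATF3 lay at the border of the rule. The median log2 fold of the 10 factors was 0.26, against 0.011 over all measured genes, of which 50.7% lay above 0. The number called depends on the scaling: with plain total counts or the authors' deposited RPKM 3 factors were called higher (FOSL2, FOSB and ATF3), beside 10.8% and 10.7% of all measured genes under the same settings. The share of higher genes among all calls was then 81.5% and 81.1% in place of 70.0%. Plain totals raised the median log2 fold of all genes by 0.13, and directions here are relative to the TMM scaling; each of the 10 factors kept its direction under the 8 alternatives that can change a fold.

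**Figure D1:**
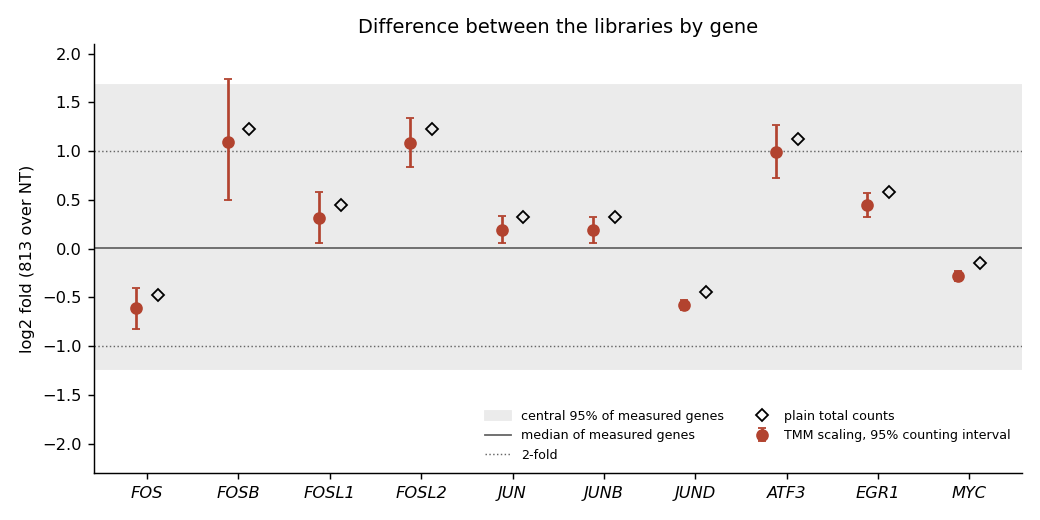
Log2 fold of each gene, library 813 over library NT. Filled circles are TMM-scaled values with 95% counting intervals, open diamonds the values with plain total counts, the grey band the central 95% of 12254 measured genes (-1.24 to 1.68), the solid line their median and the dotted lines 2-fold. Each of the 10 genes lies inside the band, with FOSB, FOSL2 and ATF3 close to the upper 2-fold line and FOS and JUND the lowest.

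Promoter windows of 300 bases, from 250 before the transcription start to 50 after it, were taken from RefSeq (GRCh38.p14) for 8 of the 10 genes (9 windows, ATF3 having a pair); FOSL1 and MYC are named only. They are shown for the factor called higher, FOSL2, for the lowest FOS and JUND, and for EGR1, whose window holds the classical site of growth factor response. Letters in capitals match a motif searched on both strands: TGACTCA (AP-1), TGACGTCA (CRE), CACGTG (E-box, read by MYC), GCGGGGGCG (EGR), TGTGGT (RUNX), CCGGAA (ETS), GGAA 3 times in a row, and the CArG box, the site of serum response factor. No match overlapped another.
FOSL2 (chr2:28392608-28392907, plus strand): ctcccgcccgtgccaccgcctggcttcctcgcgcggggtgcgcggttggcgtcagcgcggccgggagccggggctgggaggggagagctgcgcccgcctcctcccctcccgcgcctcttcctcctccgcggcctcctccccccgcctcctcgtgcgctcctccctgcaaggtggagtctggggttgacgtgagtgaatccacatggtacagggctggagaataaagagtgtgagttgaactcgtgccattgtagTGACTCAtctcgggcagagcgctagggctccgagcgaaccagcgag
FOS (chr14:75278578-75278877, plus strand): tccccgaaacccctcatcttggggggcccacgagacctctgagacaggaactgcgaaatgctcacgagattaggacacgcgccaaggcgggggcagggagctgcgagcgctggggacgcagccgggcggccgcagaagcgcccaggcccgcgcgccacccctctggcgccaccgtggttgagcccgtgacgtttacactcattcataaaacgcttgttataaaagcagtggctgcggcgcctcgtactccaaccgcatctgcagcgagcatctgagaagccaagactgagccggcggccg
JUND (chr19:18281573-18281872, minus strand): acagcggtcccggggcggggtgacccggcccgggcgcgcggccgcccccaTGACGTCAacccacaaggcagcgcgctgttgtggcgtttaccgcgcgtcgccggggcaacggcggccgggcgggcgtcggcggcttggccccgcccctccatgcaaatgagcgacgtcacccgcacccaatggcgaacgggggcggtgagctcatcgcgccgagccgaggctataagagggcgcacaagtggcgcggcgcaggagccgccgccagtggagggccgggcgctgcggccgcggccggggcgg
EGR1 (chr5:138465229-138465528, plus strand): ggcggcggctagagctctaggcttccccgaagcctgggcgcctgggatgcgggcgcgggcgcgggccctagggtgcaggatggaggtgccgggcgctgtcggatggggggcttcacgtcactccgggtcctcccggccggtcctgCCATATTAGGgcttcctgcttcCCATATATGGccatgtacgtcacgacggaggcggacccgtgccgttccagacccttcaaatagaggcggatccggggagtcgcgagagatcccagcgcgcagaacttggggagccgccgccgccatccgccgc

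The FOSL2 window held 1 AP-1 motif just after the start, at bases 5 to 11 counted from the start site as 1; 4.95% of all 35116 windows in the table hold that motif. The JUND window held 1 CRE, at bases -200 to -193 (1.85% of all windows). The EGR1 window held a pair of CArG boxes, at bases -105 to -96 and -83 to -74 (1.29% of all windows hold at least 1). The FOS window held none of the letters searched. Among the other windows FOSB held 1 ETS motif (17.2% of all windows), and JUN, JUNB and both ATF3 windows held no match. For ATF3 the distal first exon had 0 reads in both libraries. The first exon further in (chr1:212781970-212782272 in hg19) had 31 reads in library 813 and 9 reads in library NT. It has no window here, so the bases before it were not searched. The RUNX motif, in 13.1% of all windows, was in 0 of the 9. A match of letters does not show binding, and bases outside these windows were not searched.

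Within the FOS family the members lay on both sides of 0. FOS, the founding member and the partner typical of the first minutes of a response, lies at chr14:75745481-75748937 in hg19, the build of all gene and exon coordinates given here; those of the promoter windows are GRCh38. It had 304 pairs in library 813 and 441 pairs in library NT, or 12.4 and 18.998 CPM. It was lower in library 813, with a log2 fold of -0.61 (-0.83 to -0.40). FOSL2, which encodes FRA2, a family member that lacks the strong activation domain of FOS and persists longer after a stimulus, moved the other way. It lies at chr2:28615779-28637516 and had 424 pairs in library 813 against 189 pairs in library NT, or 17.3 and 8.14 CPM. Its log2 fold was 1.09 (0.84 to 1.35), a level 2.13-fold higher in library 813, and the call ended when a trend on gene length was removed (0.97). FOSB, an immediate early gene known in neurons for its long-lived short isoform, was the scarcest of the set (chr19:45971253-45978437). Its 75 pairs in library 813 stood against 33 pairs in library NT, a log2 fold of 1.098 with a wide interval (0.50 to 1.75) that missed the rule. FOSL1, which encodes FRA1, a factor typical of cells with sustained ERK activity (chr11:65659692-65667997), had 281 pairs in library 813 and 214 pairs in library NT. Its log2 fold was 0.32 (0.056 to 0.58), well below the rule of size.

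Because FOS was lower while its relatives were higher, the make-up of the family differed more than its total. Levels of different genes were compared per length, as CPM divided by the gene's listed length in kb. Summed this way, the FOS family stood at 17.8 CPM per kb in library 813 and 16.7 in library NT, a ratio of 1.06. FOS made up 32.4% of that sum in library 813, against 52.6% in library NT. FOSL2 made up 24.4% in library 813 and 12.2% in library NT. FOSL1 made up 38.7% of the sum in library 813 and 33.0% in library NT; in library 813 its level and that of FOS had overlapping counting intervals, so their order there is within counting error. Counted as shares of pairs, FOS held 28.0% (Clopper-Pearson 25.4 to 30.8) in library 813 and 50.3% (46.9 to 53.6) in library NT, so the intervals did not overlap. By pairs, which favour longer transcripts, FOSL2 held the highest share in library 813, 39.1%, against 21.6% in library NT. The authors' deposited RPKM were 4.63 in library 813 and 6.47 in library NT for FOS, and 3.49 and 1.4997 in the same libraries for FOSL2. They give the same shares per length by construction, since they rest on the same counts and lengths, and are no separate check. Ratios between members of 1 library do not depend on how libraries are scaled, but they do depend on a trend on gene length. With that trend removed the log2 folds were 0.97 for FOSL2 and -0.50 for FOS, closer together than 1.09 and -0.61. The ratio of FOSL2 to FOS, per length, was 0.754 in library 813 and 0.232 in library NT, 3.25 times larger in library 813 (2.58 to 4.10). That of FOSL1 to FOS was 1.904 times larger (1.503 to 2.41) and that of FOSB to FOS 3.29 times larger (2.098 to 5.26). The ratio of FOSL2 to FOSB was 5.35 in library 813 and 5.42 in library NT, and the ratio of these ratios, 0.987 (0.612 to 1.57), leaves room for differences of about 1.5-fold either way.

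**Figure D2:**
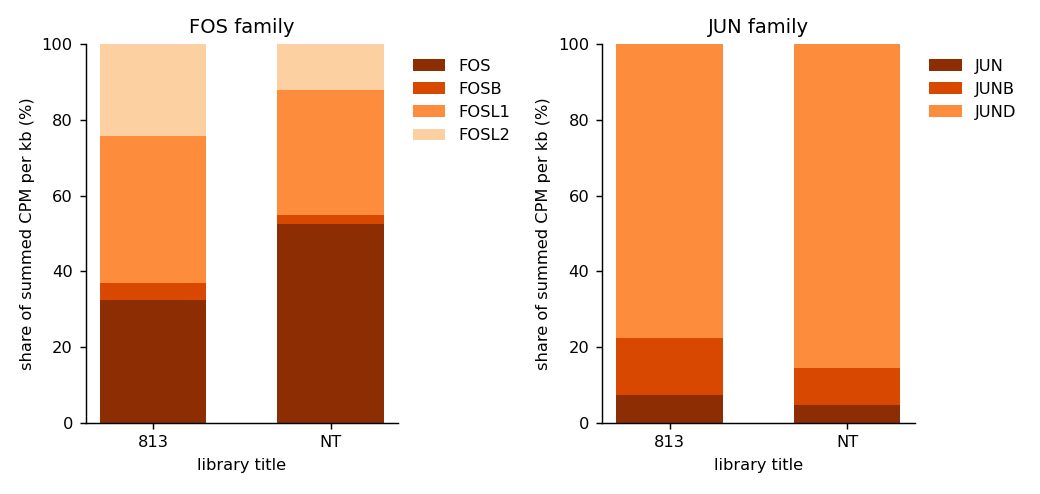
Share of each gene in the summed length-scaled level (CPM per kb) of its family, in percent, in library 813 (left bar) and library NT (right bar). FOS holds 32.4% of the FOS family in library 813 and 52.6% in library NT, and JUND holds 77.5% and 85.4% of the JUN family in the same libraries.

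The JUN family was dominated by JUND in both libraries. JUND, a JUN protein that is present in resting cells and less dependent on stimulation than its relatives, is, like JUN and JUNB, a gene without introns, at chr19:18390563-18392432. It had 5400 pairs in library 813 and 7638 pairs in library NT, or 221 and 329 CPM, a log2 fold of -0.58 (-0.63 to -0.53). It was lower in library 813 by less than the rule of size. JUN, the immediate early member and the principal partner of FOS (chr1:59246463-59249785), had 919 pairs in library 813 and 762 pairs in library NT. JUNB, a weaker activator that can restrain JUN (chr19:12902310-12904125), had 1019 pairs in library 813 and 847 pairs in library NT. Their log2 folds were nearly equal, 0.19 for JUN (0.055 to 0.34) and 0.19 for JUNB (0.058 to 0.32). The ratio of JUN to JUNB was 0.493 in library 813 and 0.492 in library NT, and the ratio of these ratios, 1.003 (0.876 to 1.15), spanned 1. With a trend on gene length removed the log2 folds moved apart, to 0.16 for JUN and 0.34 for JUNB.

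With JUND lower and the other JUN genes slightly higher, the family sum per length was 152 CPM per kb in library 813 and 206 in library NT, a ratio of 0.740. JUND made up 77.5% of it in library 813, against 85.4% in library NT. JUNB made up 15.1% in library 813 and 9.76% in library NT, and JUN 7.42% and 4.80% in the same libraries. The ratios of JUN and JUNB to JUND were 1.71 times (1.54 to 1.89) and 1.70 times (1.54 to 1.88) larger in library 813. With a trend on gene length removed the log2 folds were 0.16 for JUN and -0.43 for JUND, which makes the difference in the JUN to JUND ratio smaller. JUN family mRNA exceeded FOS family mRNA 8.56 times per length in library 813 and 12.3 times in library NT.

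ATF3, a stress-induced bZIP factor that pairs with JUN proteins and often represses its targets, was close to 2-fold higher in library 813. The gene (chr1:212738676-212794119) had 361 pairs in library 813 and 172 pairs in library NT, or 14.8 and 7.41 CPM. Its log2 fold was 0.99 (0.73 to 1.26), just under the rule; it passed with plain total counts (1.13), with the deposited RPKM (1.12) and with the trend on gene length removed (1.05). EGR1, an immediate early zinc-finger factor outside the bZIP class (chr5:137801181-137805004), had 1364 pairs in library 813 and 949 pairs in library NT. Its log2 fold was 0.45 (0.33 to 0.57), a level 1.36-fold higher in library 813. EGR1 and FOS, both known targets of serum response factor, lay on opposite sides of 0, and their ratio was 2.08 times larger in library 813 (1.76 to 2.48). MYC, a growth-promoting factor that is itself switched on early after stimulation (chr8:128748315-128753680), had 6102 pairs in library 813 and 7037 pairs in library NT. Its log2 fold was -0.28 (-0.33 to -0.23), a small difference measured on many pairs.

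Levels per length spanned more than 100-fold between members, and the order was similar in both libraries. JUND was highest, at 118 CPM per kb in library 813 and 176 in library NT, and MYC followed at 105 and 128. JUNB (22.9 in library 813 and 20.1 in library NT), EGR1 (17.8 and 13.0) and JUN (11.3 and 9.88) came next in both libraries. Below them FOSL1 (6.89), ATF3 (5.80) and FOS (5.76) had overlapping counting intervals in library 813. In library NT FOS stood at 8.80 CPM per kb, overlapping JUN above it, and was clear of FOSL1 (5.53) and ATF3 (2.91). FOSL2 was ninth, at 4.34 CPM per kb in library 813 and 2.04 in library NT, and FOSB last, at 0.812 and 0.376. Among all measured genes JUND and MYC exceeded 94.2% and 93.5% in library 813, whereas FOSB exceeded 16.9%.

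**Figure D3:**
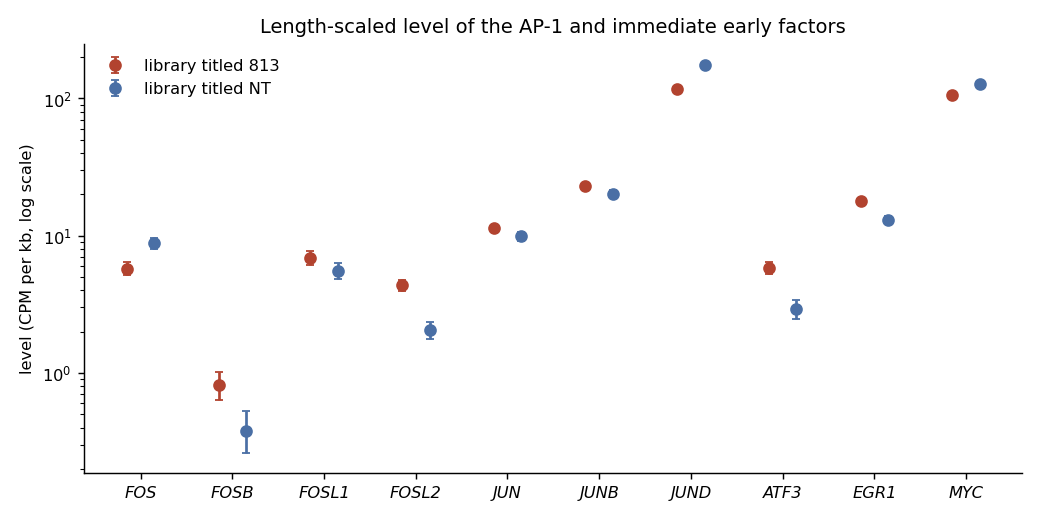
Length-scaled level (CPM per kb, log axis) of each gene in library 813 (left point of each pair) and library NT (right point); bars are exact 95% Poisson intervals, which cover counting error only. JUND and MYC lie above 100 CPM per kb in both libraries, and FOSB lies lowest, at 0.812 in library 813 and 0.376 in library NT.

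The 10 genes have 35 exon records. JUN, JUNB and JUND have 1 record each, which is the whole gene, so only the other 7 genes can show a difference along their length. These have 28 records with at least 20 reads over both libraries, and 27 of the 28 lay on the same side of 0 as their gene. A record is part of its gene and several ATF3 records overlap, so neither the records nor this count are independent of the gene values. The exception was the third exon of FOS (chr14:75747263-75747370), with 71 reads in library 813 and 56 reads in library NT and a log2 fold of 0.26 (-0.49 to 1.04). The other FOS exons had log2 folds of -0.75, -0.69 and -0.60, and the interval of the third narrowly overlapped that of the rest (-0.86 to -0.42), so these intervals do not separate it from the gene. That exon belongs to a shared design: FOS, FOSB, FOSL1, FOSL2 and ATF3 each have 1 record of exactly 108 bases, a length held by 0.760% of all 230470 records. In FOS this exon encodes the basic region, which contacts DNA. Of the 28 records, 0 had an interval clear of that of the rest of their gene. Overlap of separate intervals does not show equal folds, and a difference between record and rest was not tested. The last MYC exon, at -0.214 (-0.284 to -0.143), also overlapped the rest of MYC (-0.417 to -0.279) only narrowly.

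FOSL2 was higher in library 813 in each of its 4 exons, with 173 and 52 reads in the first exon in libraries 813 and NT, 89 and 47 in the second, 57 and 22 in the third and 553 and 262 in the last. Their log2 folds were 1.64, 0.83, 1.26 and 0.9995. In ATF3 the distal first exon (chr1:212738676-212738825) had 0 reads in both libraries. A first exon further in (chr1:212781970-212782272) had 31 reads in library 813 and 9 reads in library NT. The exon record at chr1:212788360-212788603 had 108 reads in library 813 and 61 reads in library NT. Whether any transcript starts in it was not tested. This exon record contains several shorter ones that end at the same base, so most of its reads cannot be given to 1 record. The record at its first bases (chr1:212788360-212788402) had 21 reads in library 813 and 11 reads in library NT. In EGR1 the first exon had 300 and 263 reads in libraries 813 and NT, a log2 fold of 0.11 (-0.23 to 0.46), and the second 2331 and 1571 reads, a log2 fold of 0.49 (0.36 to 0.63). The intervals overlapped. The 3 MYC exons had log2 folds of -0.39, -0.33 and -0.21. FOSB has a short isoform that removes part of its last exon; that exon is 1 record here, with 112 reads in library 813 and 50 reads in library NT, so the isoforms could not be separated.

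**Figure D4:**
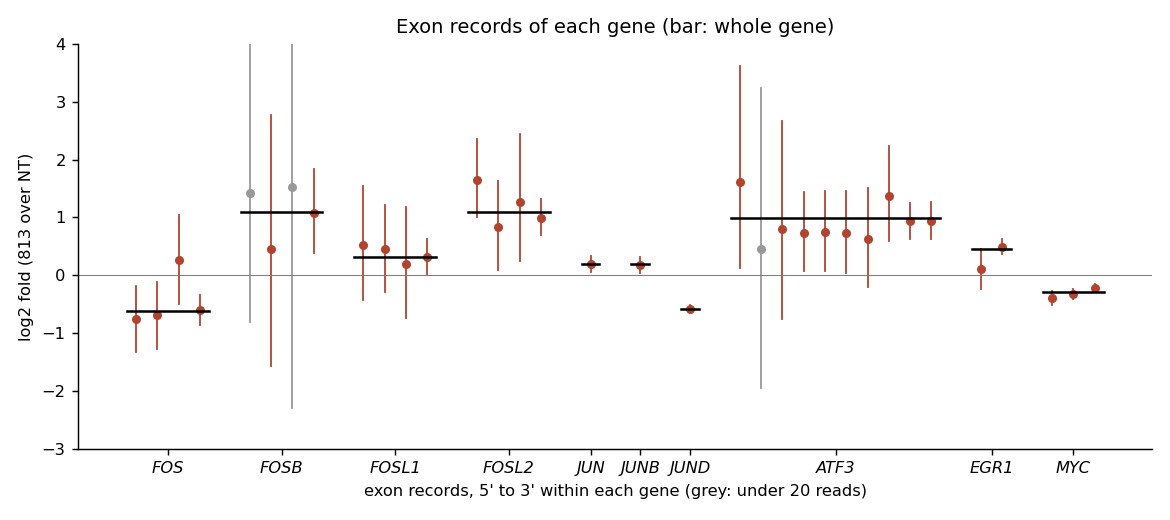
Log2 fold of each exon record, library 813 over library NT, in transcript order within each gene, with 95% counting intervals clipped at -3 and 4; grey points have under 20 reads and black bars mark the whole gene. The third FOS record lies above 0 at 0.26 while the other FOS records lie between -0.75 and -0.60.

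Some relatives of the bZIP factors lie on the same chromosomes, at the distances given. BATF3, a small bZIP protein that pairs with JUN and lacks an activation domain, lies 65.6 kb from ATF3 and was called higher, like its neighbour in direction, with 270 pairs in library 813 and 99 pairs in library NT (log2 fold 1.37, 1.03 to 1.72). JDP2, a repressor that pairs with JUN, lies 146 kb from FOS and had 642 pairs in library 813 and 545 pairs in library NT (log2 fold 0.16, -0.006 to 0.33). BATF, 240 kb from FOS, was listed at 0 in both libraries. BATF2, 895 kb from FOSL1, had 11 pairs in library 813 and 7 pairs in library NT, under 1 CPM in both. Of 15 measured bZIP partners of 19 listed, 2 were called higher and 0 lower, beside 8.13% and 3.48% of all measured genes. The list's median log2 fold was 0.16, and 0.040 to 0.30 over the alternatives. The other one called was ATF6, a sensor of unfolded protein in the endoplasmic reticulum (log2 fold 1.02, 0.86 to 1.18).

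Of 26 other immediate early genes measured, 8 were called higher and 0 lower, beside 8.13% and 3.48% of all measured genes. Their median log2 fold was 0.65 (0.52 to 0.79 over the alternatives), against 0.011 over all measured genes. IER3, an early response gene linked to survival, had 73.1 CPM in library 813 and 24.9 CPM in library NT (log2 fold 1.55, 1.42 to 1.69). MCL1, an anti-apoptotic BCL2 relative, had 73.8 and 26.3 CPM in the same libraries (1.49, 1.35 to 1.62), and the zinc-finger factor KLF6 40.5 and 14.5 CPM (1.48, 1.30 to 1.67). PHLDA1 had 12.6 CPM in library 813 and 4.61 CPM in library NT (1.45, 1.13 to 1.78). The list was not of 1 direction: 17 of the 26 lay above 0, and its values ran from -0.83 to 1.74. The highest, EGR3, was among those called and reached 1 CPM in library 813 only (1.64 CPM, against 0.474 CPM in library NT). This list was chosen with earlier results of these data known.

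Of 15 measured genes known as AP-1 targets, 7 were called higher and 0 lower, beside 8.13% and 3.48% of all measured genes. This list, like the others, was chosen with earlier results of these data known, so the count is a description only. The log2 folds of these 15 genes ran from -0.82 to 4.44 with a median of 0.62. That median was 1.38 when genes with at least 1 count were kept, and 0.59 to 0.76 under the other alternatives. The collagenase MMP1 had 468 CPM in library 813 and 21.5 CPM in library NT, and the plasminogen activator PLAU 38.6 and 9.003 CPM (log2 fold 2.097, 1.88 to 2.32). The cytokine IL1B, at 4.99 and 0.215 CPM, and the hyaluronan receptor CD44, at 11.4 and 1.72 CPM, were also called. IL1B reached 1 CPM in library 813 only. These targets have other regulators, and no link to any member was tested. For EGR1, 2 of 6 measured corepressors and targets were called higher and 0 lower, beside the same shares of all genes. Those called were the adhesion molecule ICAM1 (1.70, 1.21 to 2.23) and the VEGF receptor FLT1 (1.49, 0.78 to 2.30). FLT1 reached 1 CPM in library 813 only (2.58 CPM, against 0.905 CPM in library NT). NAB2, a corepressor that EGR1 itself induces, had 133 CPM in library 813 and 164 CPM in library NT (log2 fold -0.30, -0.37 to -0.24). The list shares TGFB1 with the AP-1 targets. Its median was 0.40, but -0.21 among genes with 5 CPM or more and 0.91 with TMM computed without the 20 most abundant genes. That TMM setting shifted the median log2 fold of all genes by only -0.0011. The list median therefore moved through the genes that passed the 1 CPM floor and not through their folds.

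Upstream of AP-1, the kinases and the serum response machinery lay on both sides of 0, with 15 of 27 kinases and 2 of 6 serum response genes above it. Of 27 kinases measured, 2 were called higher, the JUN kinase MAPK8 (log2 fold 1.33, 0.75 to 1.96) and the ribosomal S6 kinase RPS6KA3 (1.08, 0.70 to 1.48). Another 2 were called lower, the p38 kinase MAPK13 (-1.67, -2.07 to -1.30) and RPS6KA1 (-1.11, -1.22 to -0.99). The shares over all measured genes were 8.13% and 3.48%. The median of the kinases was 0.024, but -0.21 among genes with 5 CPM or more, -0.01 with upper quartile factors and 0.16 with plain total counts. SRF, the factor that binds CArG boxes, had 138 CPM in library 813 and 164 CPM in library NT (log2 fold -0.25, -0.32 to -0.18). None of the 6 genes for SRF and its partners was called (0 of 6, median -0.24, and -0.28 to -0.11 over the alternatives). Of 12 genes of the stress response around ATF3, 0 were called in either direction (median 0.096, and 0.063 to 0.23 over the alternatives).

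Around MYC, the dimer partner MAX had 64.3 CPM in library 813 and 52.4 CPM in library NT (log2 fold 0.30, 0.19 to 0.40). Of 13 measured network genes, MXD1, a MAX partner that opposes MYC, was called higher (1.32, 0.70 to 2.0025). MYCL1, a MYC relative (-1.42, -1.96 to -0.93), and MLXIPL, a glucose-responsive factor (-1.02, -1.27 to -0.78), were called lower. The median of this list was -0.32, and -0.41 to -0.19 over the alternatives. Of 18 measured MYC target genes 1 was called higher, POLR1B, a subunit of RNA polymerase I (1.11, 0.98 to 1.25), and 1 lower, the telomerase gene TERT (-1.27, -1.51 to -1.04). Both lists stand beside 8.13% of all measured genes called higher and 3.48% called lower. The median of the MYC targets was -0.12, and turned to 0.015 with plain total counts and 0.0091 with the deposited RPKM.

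**Figure D5:**
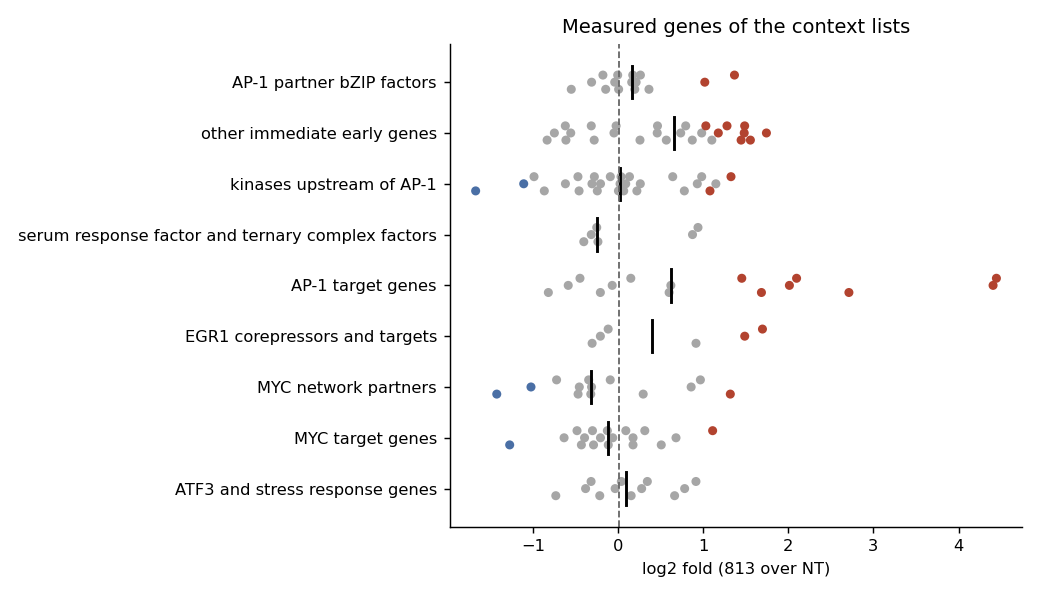
Log2 fold of the measured genes of 9 lists, library 813 over library NT; each point is a gene, red called higher, blue called lower and grey neither, the short bars are list medians and the dashed line the median of all measured genes (0.011). Other immediate early genes (median 0.65) and AP-1 targets (median 0.62) lie farthest to the right, and the MYC network (median -0.32) farthest to the left. The lists were chosen with earlier results of these data known.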

How the data were processed

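Poly(A) RNA of 2 A673 libraries, 1 per group, was compared. The authors deposited raw counts and RPKM per gene and per exon, per the file headers. Per the submitters' processing notes, CASAVA 1.9, TopHat2 2.0.6 and HTSeq were used on hg19; no source used here gives the annotation or the strand setting. By coordinates 0 members overlapped another listed gene, and none shared 50% of a transcript at 97% identity with another gene (blastn 2.17.0, GENCODE 29); 14.2% of JUNB matched HOOK2. The deposited gene counts were all even, while 36.4% and 35.5% of exon counts (813, NT) were odd, so gene counts, and exon reads for intervals, were divided by 2. Dropping 33 repeated rows left 23365. The authors' RPKM rested on 60848394 (813) and 63156235 (NT) reads.

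Sizes were scaled over all genes by TMM (edgeR 4.0.16, R 4.3.3; factors 1.05 for 813 and 0.954 for NT). Log2 folds, 813 over NT, used a prior of 0.5 pairs, with exact 95% binomial intervals (scipy 1.17.1). With 1 library a group edgeR's test could not be run. Ratios of ratios are conditional odds ratios. PCR copies are not independent, so intervals cover counting error only. CPM per kb divides by the deposited gene length. The calculation was tested on simulated counts drawn with counting error only. That checks the arithmetic, and not the spread between cultures, PCR copies or the scaling. Members and lists were chosen with earlier results of these data known. From each list up to 4 called genes a direction were named, those with the interval farthest from 0, and JDP2, SRF, NAB2 and MAX in any case. BATF, BATF2, EGR3 and the single markers were named after their values were seen. With 2 libraries no genes of like pattern were sought.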

Additional observations from a re-analysis of the deposited data

How the results depend on the processing

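Of 12 alternatives, 4 (both other count floors, the 1.5-fold rule and undivided counts) leave every fold as it is by construction. Under the other 8 each of the 10 factors and RUNX3 kept its direction. RUNX3 was called lower in 13 of 13 settings and FOSL2 higher in 12, not with the trend on gene length removed (6.54% of all genes higher). Members called higher were 1 in the main setting, 3 with plain total counts, 3 with the deposited RPKM, 3 at 1.5-fold with the interval beyond 1 (19.8% of all genes), and 2 (FOSL2, FOSB) with counts not divided by 2 (9.14%); at 1.5-fold 1 (FOS) was called lower, against 0 (11.2% of all genes). At 1.5-fold all genes called were 2429 higher and 1370 lower, against 996 and 427, and list genes 43 higher and 17 lower, against 23 and 5; plain totals and the deposited RPKM left 3 list genes lower each. Values outside their counting interval were, with plain totals, EGR1 0.58, JUNB 0.33, JUND -0.44 and MYC -0.15; with the deposited RPKM, EGR1 0.58, JUND -0.45 and MYC -0.15; and with the length trend removed, JUNB 0.34, JUND -0.43 and MYC -0.20. The scalings shift every gene by construction, and a looser rule calls more. In all, 48 of 307 recomputed values moved and 0 of the called ones turned round. The 307 include values that could not move by construction, such as the family shares with the deposited RPKM. No paired analysis was possible because each group has 1 library. FOSB, at 75 pairs in library 813 and 33 pairs in library NT, is limited most by depth; the spread between cultures is unknown for all.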
